A study of Rattus norvegicus with 24 samples.

Results

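The Slc25 genes encode the mitochondrial carriers, a family of membrane proteins most of which sit in the inner mitochondrial membrane and exchange metabolites, nucleotides and cofactors between the matrix and the cytosol. They were taken as all probe sets whose single platform gene symbol begins with Slc25a, and each gene was read by its probe set with the highest mean over the 24 arrays. This gave 40 genes out of the 14217 genes with a single-symbol probe set, chosen from 58 probe sets, and 12 of the 40 genes had more than 1 probe set. A pair of further probe sets for Slc25a51, 2 in all, carried several symbols and was left out.

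The arrays held total RNA of primary rat hepatocytes in culture, converted to biotin-labelled cRNA. Hepatocytes in the sandwich groups lay between a lower and an upper collagen gel, the upper one added a day after seeding, and those in the monolayer groups lay on the lower gel alone. RNA was taken 1, 2, 3 and 8 days after the upper gel was laid, which gave 8 groups of 3 arrays: sandwich at day 1, 2, 3 and 8, and monolayer at day 1, 2, 3 and 8. All groups shared the same type I collagen coating and the same medium, which held serum, epidermal growth factor, insulin, glucagon and hydrocortisone, and no group was freshly isolated or uncultured liver. The submitters presented sandwich culture as the stable and monolayer culture as the unstable reference condition. Strain, sex and age of the animals are not given in the labels used here, and nothing says whether replicates 1 to 3 came from separate animals or plates, so p-values measure the spread between these arrays, which may be technical.

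Liver mitochondria use these carriers for several linked tasks. ADP enters and ATP leaves the matrix through the adenine nucleotide carriers, ornithine and citrulline cross the inner membrane in each turn of the urea cycle, and aspartate leaves in exchange for glutamate in the malate-aspartate shuttle. Citrate is exported for fatty acid synthesis in the cytosol, and acylcarnitines are imported for fatty acid oxidation in the matrix.

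Values are log2 probe set levels. A gene was called in a comparison when its adjusted p in limma, a linear model fitted to all arrays with Benjamini-Hochberg adjustment over 31042 probe sets, lay under 0.05, and errors on differences are standard errors from that fit. A level of one probe set cannot be set against that of another, so all comparisons run within a gene. The median of all values was 5.62, and 7 of the 40 genes had a mean below it: Slc25a27, Slc25a31, Slc25a32, Slc25a34, Slc25a35, Slc25a41 and Slc25a53. For these, differences are given with no fold. Array medians ran from 5.57 to 5.67, arrays of 1 group correlated at 0.993 to 0.997 and arrays of different groups at 0.958 to 0.995.

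The adenine nucleotide carriers Slc25a4 and Slc25a5 followed different courses, and their promoters are shown because these paralogs exchange the same substrates. RefSeq's promoter table on GRCr8 held 34 of the 40 genes in 35 entries. Slc25a30, Slc25a32, Slc25a36, Slc25a37, Slc25a46 and Slc25a51l1 are named only. The 250 bases before the annotated start are printed 5′ to 3′ on the gene's strand, which is the plus strand for both, and capitals mark matches to the motifs searched.
Slc25a4, chr16:52805271-52805520: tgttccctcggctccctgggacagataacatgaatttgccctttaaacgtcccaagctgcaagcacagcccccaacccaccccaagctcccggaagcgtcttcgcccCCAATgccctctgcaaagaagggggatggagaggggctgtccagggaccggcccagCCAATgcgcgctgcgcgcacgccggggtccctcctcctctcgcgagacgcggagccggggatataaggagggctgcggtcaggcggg
Slc25a5, chrX:120897366-120897615: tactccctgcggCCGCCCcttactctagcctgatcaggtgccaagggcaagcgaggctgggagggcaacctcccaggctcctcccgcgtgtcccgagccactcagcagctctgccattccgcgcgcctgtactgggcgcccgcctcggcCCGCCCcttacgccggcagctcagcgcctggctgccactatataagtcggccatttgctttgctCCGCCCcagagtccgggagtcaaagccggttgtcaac
The capitals in the Slc25a4 promoter are 2 CCAAT boxes (CCAAT) on the plus strand that begin 143 and 87 bases before the start. Those in the Slc25a5 promoter are 3 GC boxes (GGGCGG) on the minus strand, read here as the complement, at 238, 101 and 37 bases before the start. Each promoter held only its own one of these motifs among the 5 searched on both strands, and GC content was 65.6% for Slc25a4 and 66.8% for Slc25a5.
A CCAAT box was present in 19 of the 35 carrier entries (54.3%) and in 34.0% of 33469 rat promoters of the same length. A GC box was present in 21 of the 35 (60.0%) and in 30.5% of all promoters. The NRF1 core CGCATGCG, which reads the same on both strands, occurred in 1 entry and in 1.47% of all promoters. The YY1 core AAGATGGCG occurred in 1 entry and in 0.693% of all promoters, and the ERR motif TCAAGGTCA in none of the 35 and in 0.388% of all promoters. None of the matches shown overlaps another, and a match describes the letters in this window and nothing more.

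Slc25a4 lies at chr16:52805521-52809316 on GRCr8 and encodes the ADP/ATP carrier that is most abundant in heart and skeletal muscle. Its 1 probe set rose from each sampled day to the next in both cultures. The days are unevenly spaced, so the steps between them are not rates. In sandwich it read 6.60, 6.98 and 7.07 at day 1, 7.89, 7.95 and 8.20 at day 2, 8.89, 8.99 and 8.95 at day 3, and 10.98, 11.31 and 11.32 at day 8. In monolayer it read 7.26, 7.39 and 7.39 at day 1, 8.43, 8.76 and 8.71 at day 2, 9.61, 9.71 and 9.82 at day 3, and 11.50, 11.67 and 11.74 at day 8. No array of a later day overlapped one of an earlier day within either culture, and at each day all 3 sandwich arrays lay below all 3 monolayer arrays.

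**Figure D1:**
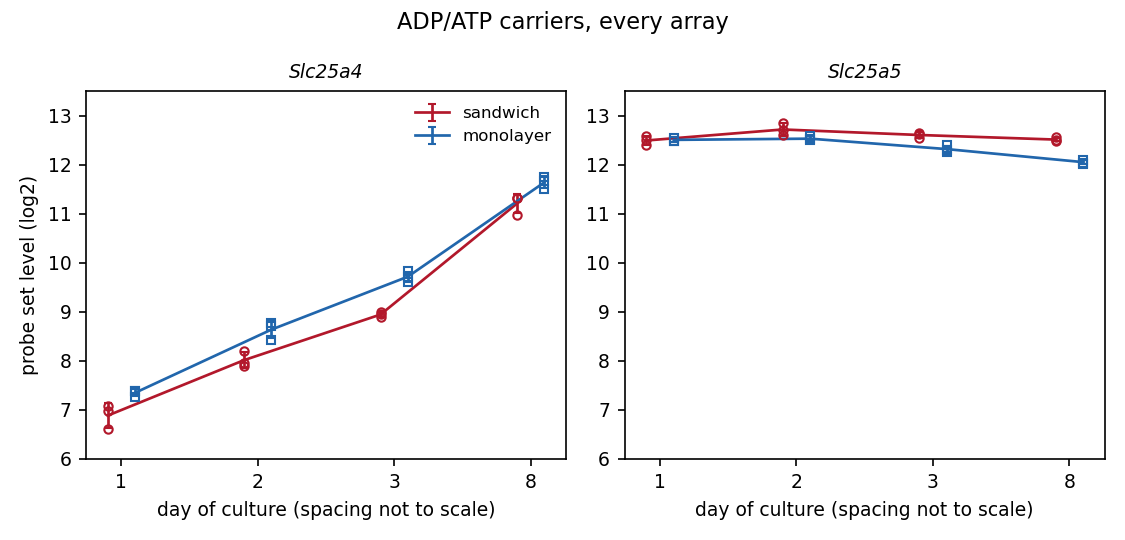
Log2 probe set level (y axis) of Slc25a4 (left) and Slc25a5 (right) on every array by day of culture (x axis, spacing not to scale), with sandwich as circles and monolayer as squares, and lines through group means with bars of 1 SD (n = 3). Slc25a4 climbed in both cultures to means of 11.20 in sandwich and 11.64 in monolayer at day 8, while Slc25a5 stayed between group means of 12.05 and 12.72; levels are not compared between the genes.

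The late rise of Slc25a4 in sandwich, from which the gene was singled out, is given as a description with no test. The sandwich mean was 11.20 at day 8 against 8.94 at day 3 and 6.88 at day 1, a difference of 2.26 over the last interval and of 4.32, or 20.0-fold, over the whole period. In monolayer the mean was 11.64 at day 8 against 9.71 at day 3, a difference of 1.92 ± 0.12 (SE, adjusted p = 2.8e-11), and against 7.35 at day 1, a difference of 4.29 ± 0.12 (SE, adjusted p = 1.01e-18), which is 19.6-fold. The change from day 1 to day 8 in sandwich minus that in monolayer was 0.03 ± 0.17 (SE). This value holds the same sandwich rise, so it too is a description with no test. The mean of Slc25a4 rose in both cultures. The earlier steps were 1.13 ± 0.12 (SE, adjusted p = 6.08e-07) from day 1 to day 2 and 0.93 ± 0.12 (SE, adjusted p = 7.03e-05) from day 2 to day 3 in sandwich, and 1.29 ± 0.12 (SE, adjusted p = 1.3e-07) and 1.08 ± 0.12 (SE, adjusted p = 2.46e-06) in monolayer.

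Slc25a4 was lower in sandwich than in monolayer at every day. The difference was -0.46 ± 0.12 (SE, adjusted p = 0.0479) at day 1, -0.62 ± 0.12 (SE, adjusted p = 0.0015) at day 2, -0.77 ± 0.12 (SE, adjusted p = 3.58e-05) at day 3 and -0.43 ± 0.12 (SE, adjusted p = 0.00853) at day 8, so that the monolayer level was 1.38, 1.54, 1.71 and 1.35 times the sandwich level. The day 1 call was lost with quantile normalization (adjusted p = 0.139), with only the compared arrays in the fit (adjusted p = 0.115) and without any 1 of 17 arrays (adjusted p 0.0509 to 0.299). The day 8 call was lost without sandwich day 8 replicate 1 (adjusted p = 0.0765). That comparison holds the sandwich day 8 arrays for which the gene was singled out, so its p-value is not independent of that choice.

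Because Slc25a4 is the carrier of muscle, a list of 10 striated muscle markers was read beside it. Of 9 measured, 7 had means below 5.62, namely Myh6, Myh7, Tnnt2, Tnni3, Ckm, Ckmt2 and Mb. None was called between the cultures at day 8, where 15.6% of all genes were higher and 20.7% lower in sandwich. Nor did any reach an unadjusted p under 0.05 in limma. Between day 1 and day 8, 14.3% of all genes were higher and 17.5% lower in sandwich. In monolayer these shares were 17.5% and 21.2%. The 1 gene called over time was Cox6a2, a muscle-type subunit of cytochrome c oxidase, at 8.75 at day 8 against 6.11 at day 1 in sandwich (2.65 ± 0.12 (SE, adjusted p = 2.32e-14)) and 8.51 against 6.50 in monolayer (2.01 ± 0.12 (SE, adjusted p = 2.21e-12)). Cox6a2 was lower in sandwich than in monolayer at day 2 (7.31 against 8.25, -0.94 ± 0.12 (SE, adjusted p = 1.06e-05)) and at day 3 (8.21 against 9.35, -1.14 ± 0.12 (SE, adjusted p = 1.37e-07)), the direction Slc25a4 had on those days. In monolayer it was lower at day 8 than at day 3 (-0.84 ± 0.12 (SE, adjusted p = 1.97e-05)), where Slc25a4 was higher. The list averaged 4.98 in sandwich and 4.91 in monolayer at day 8, and its part in the Slc25a4 values was not tested. In bulk RNA, fewer cells of a type and less RNA per cell cannot be told apart.

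Markers of other cell types also differed between day 8 and day 1, the interval over which Slc25a4 and Slc25a36 rose. Over it, 14.3% of all genes were higher and 17.5% lower in sandwich. In monolayer the shares of all genes were 17.5% higher and 21.2% lower. Of 10 stellate cell and fibroblast markers, 4 were higher at day 8 than at day 1 in each culture and none lower (limma, also at an unadjusted p under 0.05). They included the collagen genes Col1a1, Col1a2 and Col3a1 in both cultures, with Rgs5 in sandwich and Des in monolayer. Col1a2 averaged 7.24 at day 8 against 4.34 at day 1 in sandwich and 8.14 against 4.13 in monolayer. The list mean ran from 5.86 to 6.30 at day 8 and from 5.25 to 5.30 at day 1 on the sandwich arrays, and from 5.98 to 6.18 and from 5.08 to 5.29 on the monolayer arrays, and 6 of the 10 markers had means below 5.62. Of 6 measured cholangiocyte markers, 2 were higher at day 8 than at day 1 in sandwich (Krt19 and Epcam) and 4 in monolayer (Krt7, Krt19, Epcam and Cldn4), and none was lower, also at an unadjusted p under 0.05 in limma. Of 9 measured macrophage markers 4 were higher in each culture, while 3 were lower in sandwich and 4 in monolayer. Of 9 measured endothelial markers 2 were higher in sandwich and none in monolayer, where 1 was at an unadjusted p under 0.05 in limma. The part of these markers in the carriers' changes over time was not tested.

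Slc25a5, the ADP/ATP carrier of liver and of growing cells, had its called changes over time in monolayer, where it fell. In sandwich it read 12.41, 12.57 and 12.49 at day 1, 12.59, 12.84 and 12.71 at day 2, 12.54, 12.65 and 12.62 at day 3, and 12.48, 12.50 and 12.55 at day 8. In monolayer it read 12.47, 12.49 and 12.55 at day 1, 12.49, 12.51 and 12.58 at day 2, 12.25, 12.39 and 12.30 at day 3, and 12.02, 12.03 and 12.10 at day 8. From day 2 on every sandwich array lay above every monolayer array of that day. The culture difference was 0.46 ± 0.08 (SE, adjusted p = 4.88e-05) at day 8, 1.38-fold, and 0.29 ± 0.08 (SE, adjusted p = 0.0101) at day 3, where the call was lost without monolayer day 3 replicate 1 (adjusted p = 0.0567) and with only the compared arrays in the fit (adjusted p = 0.0656). The difference between day 8 and day 1 was -0.45 ± 0.08 (SE, adjusted p = 4.76e-05) in monolayer and 0.02 ± 0.08 (SE, adjusted p = 0.916) in sandwich, and the sandwich change minus the monolayer change was 0.47 ± 0.11 (SE, adjusted p = 0.00311). Slc25a31, the ADP/ATP carrier of testis, lay below the median of all values and was called in no comparison.

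The genes whose 8 group means ran most like those of Slc25a4, by Pearson correlation among the 14217 genes, were Ldhb (0.996), Kif1c (0.991), Calml4 (0.991), Maf (0.991) and Nol3 (0.990). Ldhb, the heart-type subunit of lactate dehydrogenase, had means of 5.55, 6.33, 6.95 and 8.69 in sandwich and 5.76, 6.88, 7.87 and 9.04 in monolayer at days 1, 2, 3 and 8. These 8 means share arrays between genes, and any gene that climbs with time in both cultures scores high. Among the carriers the closest was Slc25a36 (0.970), followed by Slc25a30 (0.869), Slc25a29 (0.789) and Slc25a28 (0.788).

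Across the family, the cultures differed little at first and more with time. At day 1, 1 of 40 genes was higher in sandwich (0.823% of all genes were) and 2 were lower (1.75% of all genes). At day 2, 4 were higher (2.83% of all genes) and 3 lower (5.85%). At day 3 the counts were 14 higher (35.0% of members, 10.9% of all genes) and 5 lower (12.5% of members, 11.8% of all genes). At day 8, 15 were higher (37.5% of members, 15.6% of all genes) and 7 lower (17.5% of members, 20.7% of all genes). The 7 include Slc25a4, which was singled out for its late rise in sandwich. The median difference over the 40 genes was 0.20 at day 3 and 0.11 at day 8, against 0.01 and 0.00 over all genes. The larger share of members than of all genes at days 3 and 8 thus stood on the higher side, and the lower side held about the background share. All genes called in either direction were 22.7% at day 3 and 36.3% at day 8. With dim probe sets left out they were 33.9% and 49.9%. Of the members kept, 20 were called at day 3 (15 higher, 5 lower) and 24 at day 8 (15 higher, 9 lower). The number of members kept is not given here, so no member share is set beside these percentages. Whether the larger member share follows signal level was not tested.

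The smaller counts were the less stable ones. The day 1 total of 3 fell to 1 without sandwich day 1 replicate 2, and the day 2 total of 7 fell to 3 without sandwich day 2 replicate 1 or monolayer day 2 replicate 3, and to 4 without sandwich day 2 replicate 2 or 3 or monolayer day 2 replicate 1. The day 3 total of 19 fell to 11 without monolayer day 3 replicate 1. With quantile normalization the split was 1 higher and 1 lower at day 1 and 7 higher and 3 lower at day 2, and with median-centred arrays it was 2 higher and 3 lower at day 2.

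**Figure D2:**
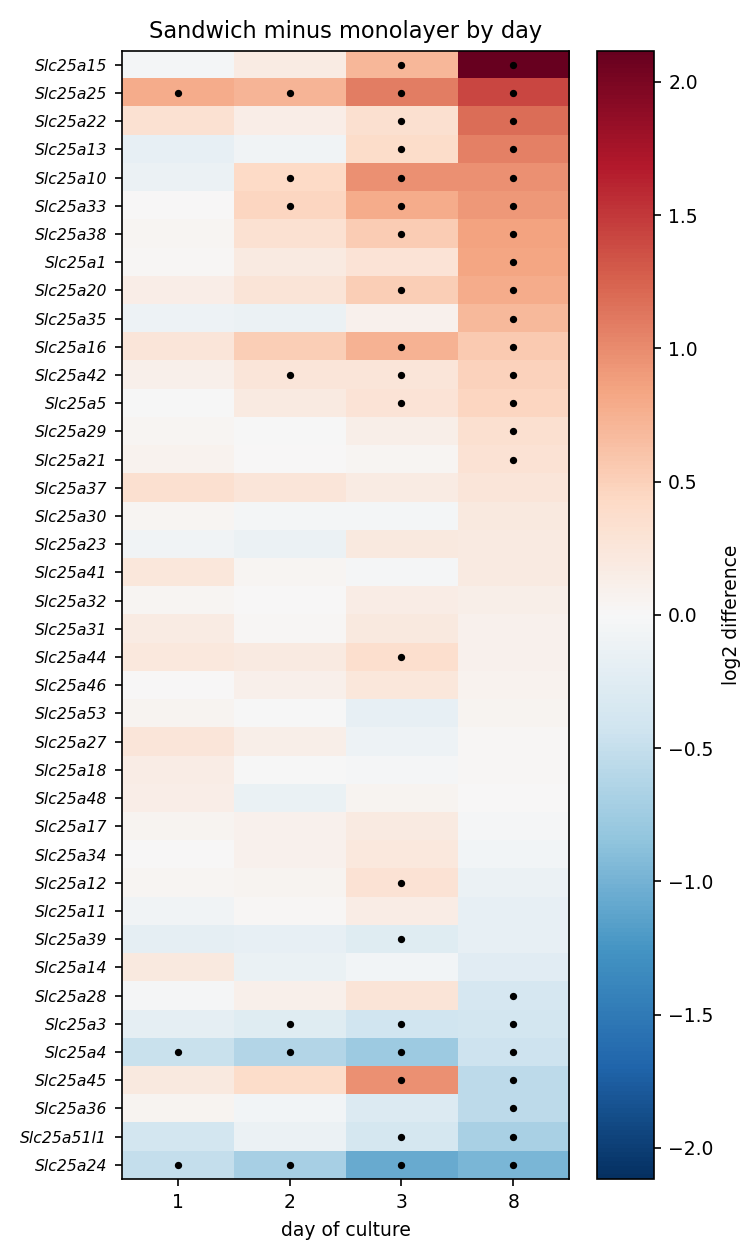
Sandwich minus monolayer (log2 difference of group means, colour scale) for the 40 carriers (rows, ordered by the day 8 difference) at days 1, 2, 3 and 8 (columns); a dot marks a call at adjusted p under 0.05. Calls go from 3 at day 1 to 22 at day 8, and Slc25a45 is the gene called in opposite directions, at 0.97 at day 3 and -0.55 at day 8.

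**Figure D3:**
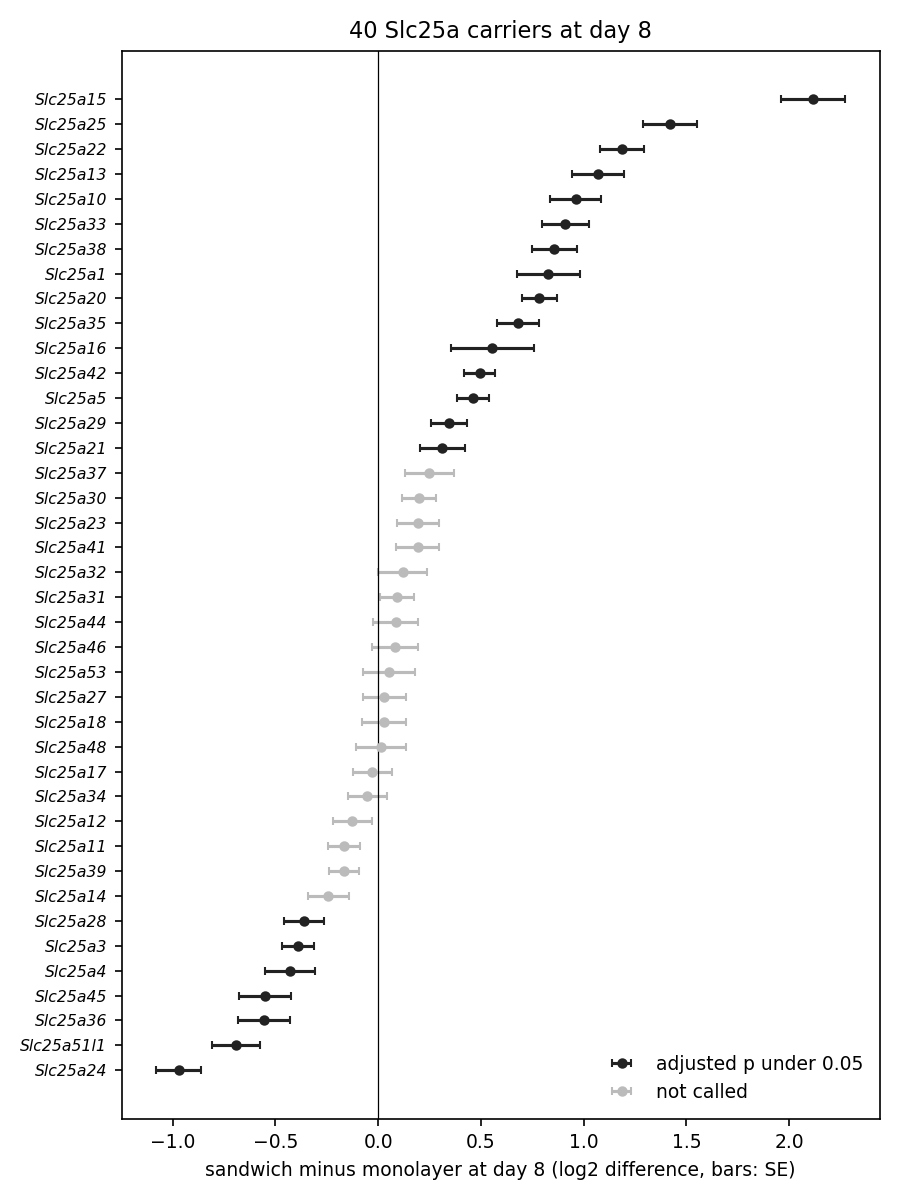
Sandwich minus monolayer at day 8 (x axis, log2 difference, bars of 1 SE) for each of the 40 carriers (y axis, ordered by size), black where called and grey where not. The differences run from 2.12 for Slc25a15 to -0.97 for Slc25a24.

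The carriers of amino acids, the malate-aspartate shuttle and the urea cycle were higher in sandwich at day 8 in 5 of 9 measured genes (15.6% of all genes were higher) and lower in none (20.7% of all genes were lower), where 1 was lower at an unadjusted p under 0.05 in limma. They were Slc25a15, Slc25a22, Slc25a13, Slc25a38 and Slc25a29. At day 3, 6 of 9 were higher (10.9% of all genes) and none lower (11.8% of all genes), also at an unadjusted p under 0.05. The day 3 calls of Slc25a12, Slc25a13, Slc25a22 and Slc25a44 depended on single arrays. They were lost without any 1 of 5, 4, 5 and 3 arrays, respectively (limma, adjusted p 0.0525 to 0.14).

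Slc25a15, the ornithine and citrulline carrier of the urea cycle, had the largest culture difference of the family at day 8. In sandwich it read 9.98, 9.46 and 10.03 at day 1, 10.71, 10.07 and 10.55 at day 2, 10.93, 10.89 and 10.67 at day 3, and 11.48, 11.59 and 11.41 at day 8. In monolayer it read 10.03, 10.07 and 9.51 at day 1, 10.19, 10.36 and 10.28 at day 2, 10.15, 10.09 and 10.12 at day 3, and 9.32, 9.55 and 9.26 at day 8. The arrays of the cultures overlapped at days 1 and 2 and were apart at days 3 and 8. At day 8 the difference was 2.12 ± 0.16 (SE, adjusted p = 8.43e-11), 4.34-fold. The gene rose by 1.67 ± 0.16 (SE, adjusted p = 7.91e-09) in sandwich between day 1 and day 8 and fell by 0.49 ± 0.16 (SE, adjusted p = 0.0178) in monolayer, where the arrays of day 8 and day 1 overlapped and the call was lost without any 1 of 4 arrays, namely monolayer day 1 replicates 1 and 2 and monolayer day 8 replicates 1 and 3 (adjusted p 0.0574 to 0.104). Of its 6 probe sets, 5 gave day 8 culture differences between 2.09 and 2.25, and the dim sixth, with a mean of 4.64 over all arrays, gave 0.15.

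Slc25a13, the aspartate and glutamate carrier of liver known as citrin, moved through a fall in monolayer. Its sandwich arrays read 9.48, 9.14 and 9.33 at day 1, 9.20, 8.66 and 9.17 at day 2, 9.18, 9.34 and 9.05 at day 3, and 9.04, 9.13 and 8.95 at day 8. Its monolayer arrays read 9.59, 9.50 and 9.40 at day 1, 9.10, 9.17 and 8.98 at day 2, 8.84, 8.86 and 8.68 at day 3, and 8.00, 8.13 and 7.78 at day 8. The fall in monolayer was -1.52 ± 0.13 (SE, adjusted p = 4.76e-10), 2.88-fold, and the sandwich difference between the same days was -0.28 ± 0.13 (SE, adjusted p = 0.121), where a second probe set gave -0.63 (adjusted p = 2.36e-05). Sandwich exceeded monolayer at day 8 by 1.07 ± 0.13 (SE, adjusted p = 2.37e-07), and the second probe set gave 0.90. Slc25a12, the aspartate and glutamate carrier of heart and brain, was not called between the cultures at day 8 (-0.13 ± 0.10 (SE, adjusted p = 0.387)). In sandwich it read 6.69, 7.10 and 6.75 at day 8 against 7.11, 7.25 and 7.23 at day 1. That fall of 0.35 on the log2 scale (adjusted p = 0.007) was lost without sandwich day 8 replicate 1 (adjusted p = 0.0593) and with only the compared arrays in the fit (adjusted p = 0.0519).

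Slc25a22, a glutamate carrier, read 10.33, 10.34 and 10.29 in sandwich at day 8 against 9.26, 9.04 and 9.11 in monolayer. The arrays do not overlap, and the difference was 1.19 ± 0.11 (SE, adjusted p = 3.11e-09), 2.27-fold. It was also higher in sandwich at day 8 than at day 1 of sandwich, by 0.60 ± 0.11 (SE, adjusted p = 0.000123). Slc25a38, a glycine carrier needed for heme synthesis, was higher in sandwich at day 8 by 0.86 ± 0.11 (SE, adjusted p = 8.92e-07), and Slc25a29, a carrier of basic amino acids, by 0.35 ± 0.09 (SE, adjusted p = 0.00347). Slc25a18, another glutamate carrier, was called in no comparison, and the same held for Slc25a31, Slc25a32, Slc25a34, Slc25a41, Slc25a46, Slc25a48 and Slc25a53. These 8 genes were called in none of 13 comparisons, with differences between -0.25 and 0.26. The matching share of all genes was not computed, so no result about the family is read from this. Slc25a31, Slc25a32, Slc25a34, Slc25a41 and Slc25a53 also had means below the median of all values.

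The genes on the cytosolic and matrix sides of these carriers were read from partner lists. For comparison, 15.6% of all genes were higher in sandwich at day 8 and 20.7% lower. All 6 urea cycle genes were higher in sandwich at day 8, with a median difference of 2.09, and the 3 with the smallest adjusted p were Asl (2.20 ± 0.09 (SE, adjusted p = 1.36e-15)), Arg1 (2.13 ± 0.11 (SE, adjusted p = 1.32e-13)) and Cps1 (2.06 ± 0.13 (SE, adjusted p = 6.55e-12)). Asl splits argininosuccinate, Arg1 releases urea and ornithine from arginine, and Cps1 makes carbamoyl phosphate in the matrix. Of the 4 enzymes of the malate-aspartate shuttle, 3 were higher and none lower, also at an unadjusted p under 0.05: Got1, the cytosolic aspartate aminotransferase (3.11 ± 0.10 (SE, adjusted p = 4.64e-17)), Mdh1, the cytosolic malate dehydrogenase (0.49 ± 0.08 (SE, adjusted p = 1.38e-05)), and Mdh2, its mitochondrial counterpart (0.24 ± 0.07 (SE, adjusted p = 0.00904)).

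**Figure D4:**
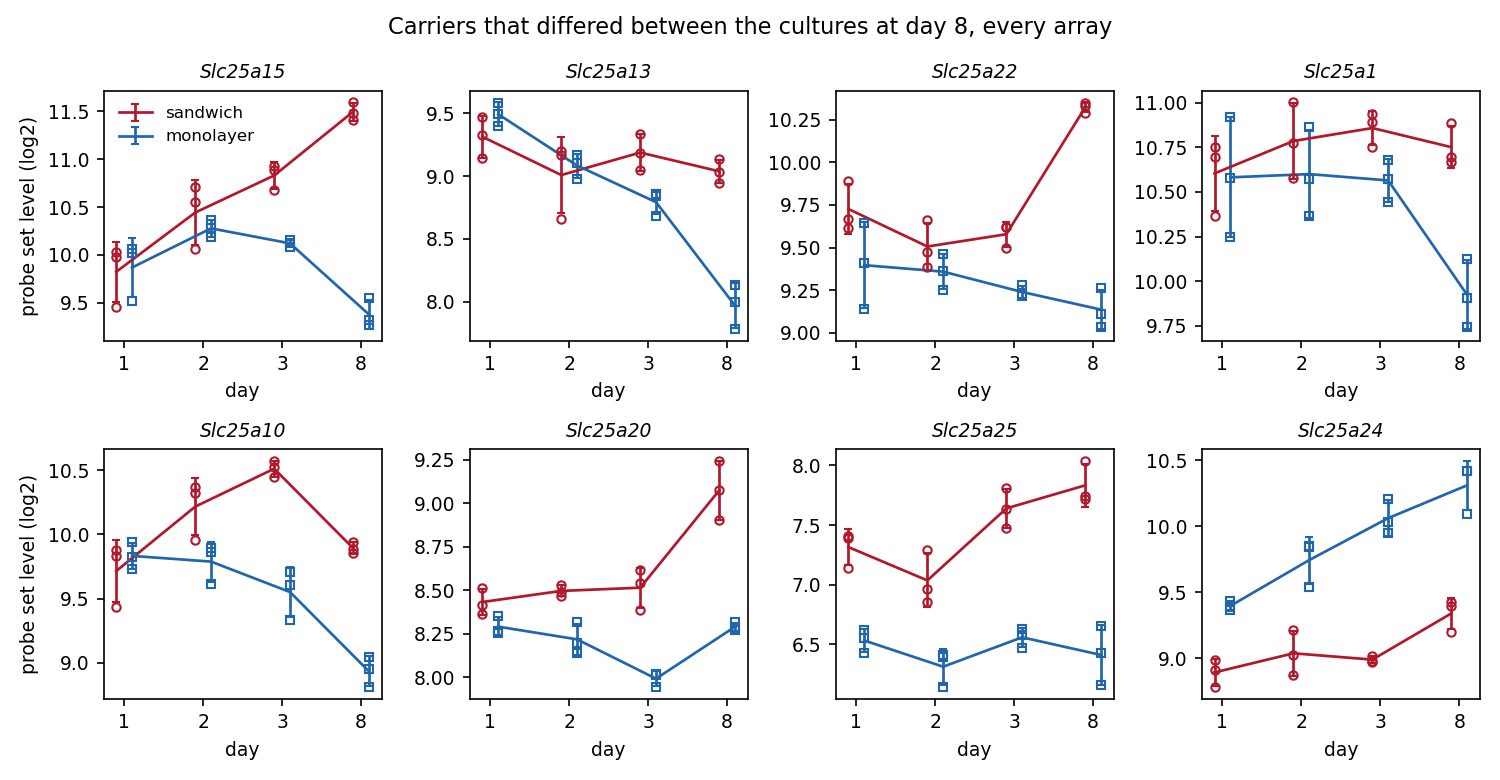
Log2 probe set level (y axes, each panel with its own range that does not start at 0) on every array by day of culture (x axes, spacing not to scale) for 8 carriers that differed between the cultures at day 8, sandwich as circles and monolayer as squares, lines through group means with bars of 1 SD (n = 3). For Slc25a15 the day 8 means were 11.50 in sandwich and 9.38 in monolayer, for Slc25a13 they were 9.04 and 7.97, and for Slc25a24 they were 9.34 and 10.31.

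Of the 4 carriers of di- and tricarboxylates, 3 were higher in sandwich at day 8 (15.6% of all genes) and none was lower (20.7% of all genes). At an unadjusted p under 0.05 in limma, 1 was lower, namely Slc25a11. That gene also stands in the list of amino acid and malate-aspartate carriers, where it is the same 1 lower gene. Slc25a1 exports citrate from the matrix. Its sandwich arrays read 10.75, 10.37 and 10.69 at day 1, 11.00, 10.58 and 10.78 at day 2, 10.94, 10.75 and 10.89 at day 3, and 10.89, 10.67 and 10.70 at day 8. Its monolayer arrays read 10.92, 10.58 and 10.25 at day 1, 10.86, 10.57 and 10.37 at day 2, 10.68, 10.57 and 10.44 at day 3, and 10.12, 9.74 and 9.90 at day 8. The cultures overlapped at days 1 and 2 and were apart at days 3 and 8, though the day 3 difference was not called. At day 8 the difference was 0.83 ± 0.15 (SE, adjusted p = 0.000126), 1.78-fold. Day 8 minus day 1 was 0.15 ± 0.15 (SE, adjusted p = 0.572) in sandwich and -0.66 ± 0.15 (SE, adjusted p = 0.00125) in monolayer.

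Slc25a10 exchanges malate and succinate for phosphate. In the sandwich groups it read 9.88, 9.44 and 9.83 at day 1, 10.37, 9.96 and 10.33 at day 2, 10.57, 10.44 and 10.53 at day 3, and 9.94, 9.89 and 9.85 at day 8. In the monolayer groups it read 9.94, 9.82 and 9.73 at day 1, 9.89, 9.86 and 9.61 at day 2, 9.61, 9.71 and 9.34 at day 3, and 9.04, 8.95 and 8.81 at day 8. It was higher in sandwich by 0.96 ± 0.12 (SE, adjusted p = 2.02e-06) at day 3 and by 0.96 ± 0.12 (SE, adjusted p = 1.03e-06) at day 8, 1.95-fold each time. Day 8 minus day 1 was 0.18 ± 0.12 (SE, adjusted p = 0.358) in sandwich and -0.90 ± 0.12 (SE, adjusted p = 2.22e-06) in monolayer. A second, dimmer probe set gave a similar culture difference at day 8 (0.94), with a rise in sandwich (0.70, adjusted p = 0.00162) and no called fall in monolayer (-0.08, adjusted p = 0.784). Slc25a21, the oxodicarboxylate carrier, was higher in sandwich at day 8 by 0.31 ± 0.11 (SE, adjusted p = 0.0363) with overlapping arrays, a call lost without sandwich or monolayer day 8 replicate 1 or 2 (adjusted p 0.0846 to 0.2) and with only the compared arrays in the fit (adjusted p = 0.106). Slc25a11, the oxoglutarate and malate carrier, was not called between the cultures at day 8 (-0.17 ± 0.08 (SE, adjusted p = 0.128)).

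A list around citrate and fatty acid synthesis held Cs, Acly, Acaca, Acss2, Me1 and Fasn. Of these 6 genes, 5 were higher in sandwich at day 8 (15.6% of all genes). None was lower (20.7% of all genes), also at an unadjusted p under 0.05. Acss2, which activates acetate, differed by 2.68 ± 0.12 (SE, adjusted p = 1.14e-14), Acly, which splits citrate, by 2.09 ± 0.12 (SE, adjusted p = 5.7e-13), and Acaca, the acetyl-CoA carboxylase of fatty acid synthesis, by 1.84 ± 0.13 (SE, adjusted p = 7.17e-11).

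Slc25a20 imports acylcarnitines and is the single carrier of its kind in the family. Its levels in sandwich were 8.37, 8.51 and 8.42 at day 1, 8.47, 8.53 and 8.49 at day 2, 8.54, 8.62 and 8.39 at day 3, and 8.90, 9.25 and 9.08 at day 8. Its levels in monolayer were 8.27, 8.26 and 8.35 at day 1, 8.14, 8.32 and 8.20 at day 2, 7.94, 8.01 and 8.02 at day 3, and 8.29, 8.32 and 8.27 at day 8. Sandwich arrays lay above monolayer arrays at each of the 4 days, and the difference was called at day 3 (0.52 ± 0.09 (SE, adjusted p = 6.5e-05)) and at day 8 (0.78 ± 0.09 (SE, adjusted p = 8.8e-08), 1.72-fold). The rise between day 1 and day 8 was 0.64 ± 0.09 (SE, adjusted p = 2.49e-06) in sandwich, and the monolayer difference was -0.00 ± 0.09 (SE, adjusted p = 0.996). In the carnitine shuttle list 3 of 6 genes were higher in sandwich at day 8 (15.6% of all genes) and 1 was lower (20.7% of all genes). The 3 with the smallest adjusted p were Cpt2, the carnitine palmitoyltransferase of the inner membrane (1.52 ± 0.11 (SE, adjusted p = 8.07e-11)), Cpt1a, the liver form of the outer membrane enzyme (0.86 ± 0.10 (SE, adjusted p = 4.51e-07)), and Slc22a5, the carnitine transporter of the plasma membrane (0.56 ± 0.11 (SE, adjusted p = 0.000304)). The gene that was lower was Crot, a peroxisomal carnitine acyltransferase (-0.75 ± 0.15 (SE, adjusted p = 0.000327)), named after its values were seen.

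Among the 13 carriers of nucleotides, phosphate and coenzymes the directions were mixed, with 5 higher and 4 lower in sandwich at day 8, where 15.6% of all genes were higher and 20.7% lower. The higher ones were Slc25a25, Slc25a33, Slc25a16, Slc25a42 and Slc25a5, and the lower ones Slc25a24, Slc25a36, Slc25a4 and Slc25a3. The Slc25a4 call holds the sandwich day 8 arrays for which the gene was singled out, so nothing is drawn from its side. Apart from Slc25a4, some paralogs with a shared substrate stood on opposite sides.

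One such pair was Slc25a25 and Slc25a24, both calcium-regulated carriers that exchange ATP-Mg for phosphate. Slc25a25 read 7.39, 7.14 and 7.41 at day 1, 7.29, 6.85 and 6.96 at day 2, 7.81, 7.63 and 7.48 at day 3, and 7.72, 8.04 and 7.74 at day 8 in sandwich. It read 6.62, 6.56 and 6.43 at day 1, 6.39, 6.41 and 6.14 at day 2, 6.58, 6.47 and 6.63 at day 3, and 6.43, 6.65 and 6.16 at day 8 in monolayer. All sandwich arrays lay above all monolayer arrays at every day, and the difference was 0.78 ± 0.13 (SE, adjusted p = 0.000953) at day 1 and 1.42 ± 0.13 (SE, adjusted p = 3.96e-09) at day 8, 2.68-fold.

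Slc25a24 ran the other way. It read 9.42, 9.39 and 9.20 at day 8 and 8.98, 8.78 and 8.91 at day 1 in sandwich. In monolayer it read 10.42, 10.42 and 10.09 at day 8 and 9.43, 9.39 and 9.37 at day 1. The sandwich arrays were lower at both days without overlap, by -0.97 ± 0.11 (SE, adjusted p = 1.24e-07) at day 8 and -0.50 ± 0.11 (SE, adjusted p = 0.0116) at day 1, and the monolayer level at day 8 was 1.96 times the sandwich level. The day 1 call was lost without monolayer day 1 replicate 1 or sandwich day 1 replicate 2 (adjusted p 0.0561 to 0.09). The gene rose between day 1 and day 8 in sandwich (0.45 ± 0.11 (SE, adjusted p = 0.00286)) and in monolayer (0.91 ± 0.11 (SE, adjusted p = 2.61e-07)). Slc25a23, another carrier of this type, was not called between the cultures at day 8 (0.19 ± 0.10 (SE, adjusted p = 0.174)), and its probe sets disagreed, at 0.54 and 0.07 in the others.

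The pyrimidine nucleotide carriers Slc25a33 and Slc25a36 also parted. Slc25a33 read 7.58, 7.80 and 7.61 in sandwich at day 8, against 6.72, 6.71 and 6.84 in monolayer. The difference was 0.91 ± 0.11 (SE, adjusted p = 6e-07), and in monolayer the day 8 level stood against 7.53, 7.48 and 7.39 at day 1, a fall of 0.71 on the log2 scale (adjusted p = 1.68e-05). Slc25a36 read 7.66, 7.82 and 7.68 in sandwich at day 8 and 6.23, 6.57 and 6.49 at day 1. In monolayer it read 8.57, 8.30 and 7.95 at day 8 and 6.50, 6.28 and 6.34 at day 1. Like Slc25a4 it rose in both cultures without overlap between those days, by 1.29 ± 0.13 (SE, adjusted p = 1.88e-08) in sandwich and 1.90 ± 0.13 (SE, adjusted p = 1.07e-11) in monolayer. At day 8 the culture difference was -0.56 ± 0.13 (SE, adjusted p = 0.00142), and a second, dimmer probe set gave -1.33. Slc25a3, the phosphate carrier that supplies ATP synthase, was lower in sandwich at day 8 (-0.39 ± 0.08 (SE, adjusted p = 0.000315)), and Slc25a42, a coenzyme A carrier, was higher (0.49 ± 0.08 (SE, adjusted p = 1.32e-05)). Slc25a16 was higher by 0.56 ± 0.20 (SE, adjusted p = 0.0424), a call lost with median-centred arrays (adjusted p = 0.0515) and without day 8 replicates 1 or 2 of sandwich or 2 or 3 of monolayer (adjusted p 0.0702 to 0.182).

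In the list of ATP synthase subunits and adenylate partners, 3 of 9 measured genes were higher in sandwich at day 8 (15.6% of all genes) and 1 was lower (20.7% of all genes). Nme4, a mitochondrial nucleoside diphosphate kinase, differed by -1.08 ± 0.12 (SE, adjusted p = 5.93e-08), Atp5po by 0.45 ± 0.09 (SE, adjusted p = 0.000329) and Atp5f1a by 0.30 ± 0.10 (SE, adjusted p = 0.0212). Atp5po and Atp5f1a are subunits of ATP synthase.

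The remaining carriers are set beside 15.6% of all genes higher and 20.7% lower in sandwich at day 8. None of the 3 uncoupling-type carriers, Slc25a14, Slc25a27 and Slc25a30, was called, while 1 was higher and 1 lower at an unadjusted p under 0.05 in limma. Of 4 carriers of iron, folate and glutathione, Slc25a28, a mitoferrin, was lower in sandwich (-0.36 ± 0.10 (SE, adjusted p = 0.00551)), a call lost without monolayer day 8 replicate 3 (adjusted p = 0.0561). Slc25a37, the mitoferrin of red cell precursors, was not called between the cultures and was lower at day 8 than at day 1 in both. Its sandwich arrays read 6.77, 6.48 and 6.74 at day 8 and 7.47, 7.37 and 7.32 at day 1, a fall of 0.73 on the log2 scale (adjusted p = 3.29e-05), and the monolayer fall was 0.63 (adjusted p = 0.000129).

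Slc25a51l1, named for its likeness to Slc25a51, the mitochondrial NAD carrier, read 7.05, 7.14 and 7.15 in sandwich at day 8 against 7.82, 7.78 and 7.81 in monolayer, a difference of -0.69 ± 0.12 (SE, adjusted p = 5.46e-05). Slc25a35, a dim gene, was higher in sandwich at day 8 by 0.68 ± 0.10 (SE, adjusted p = 1.06e-05). Slc25a45 changed sides between days. It read 7.21, 7.61 and 7.13 in sandwich at day 3 against 6.37, 6.26 and 6.40 in monolayer, and 6.50, 6.19 and 6.02 in sandwich at day 8 against 6.61, 6.78 and 6.98 in monolayer. The difference was 0.97 ± 0.13 (SE, adjusted p = 2.32e-06) at day 3 and -0.55 ± 0.13 (SE, adjusted p = 0.00139) at day 8, with no overlap on either day. Within sandwich it fell by 0.71 on the log2 scale between day 1, when it read 7.04, 6.98 and 6.83, and day 8 (adjusted p = 0.000101).

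Other transport genes of the mitochondrial membranes were mixed as well, with 6 of 20 measured genes higher (15.6% of all genes) and 4 lower (20.7% of all genes, about the same share) in sandwich at day 8. Ucp2, an uncoupling protein of the same family by structure but not by symbol, had 6.72 in sandwich against 9.32 in monolayer (-2.59 ± 0.12 (SE, adjusted p = 3.39e-14)). Mpc1, a subunit of the pyruvate carrier, was higher by 1.03 ± 0.08 (SE, adjusted p = 7.78e-11), and Sfxn3, a sideroflexin, was lower (-1.67 ± 0.15 (SE, adjusted p = 1.95e-09)).

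Change within each culture followed a common pattern of few calls between neighbouring early days and more by day 8. In sandwich, day 2 against day 1 gave 3 genes higher (4.17% of all genes) and 1 lower (3.97%), and day 3 against day 2 gave 2 higher (2.4%) and none lower (1.48%), with 6 higher and 3 lower at an unadjusted p under 0.05 in limma. Day 8 against day 3 gave 9 higher (7.01%) and 4 lower (8.1%). Day 8 against day 1 gave 13 higher (32.5% of members, 14.3% of all genes) and 5 lower (12.5% of members, 17.5% of all genes). The counts of 9 and 13 include Slc25a4, which was singled out for its rise over these intervals. Without it, 8 of 39 genes (20.5%) were higher at day 8 than at day 3 and 12 of 39 (30.8%) higher at day 8 than at day 1.

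In monolayer, day 2 against day 1 gave 2 higher (3.56%) and 1 lower (3.42%), and day 3 against day 2 gave 2 higher (3.45%) and 2 lower (3.81%). Day 8 against day 3 gave 8 higher (8.66%) and 7 lower (8.38%). Day 8 against day 1 gave 9 higher (22.5% of members, 17.5% of all genes) and 11 lower (27.5% of members, 21.2% of all genes), and the split was 6 higher and 12 lower with median-centred arrays. The smallest of these totals depended on single arrays. Sandwich day 2 against day 1 fell to 2 genes without sandwich day 1 replicate 2 or day 2 replicate 3, and sandwich day 3 against day 2 to 1 gene without day 2 replicate 2 or day 3 replicate 1. With quantile normalization that last comparison held 2 higher and 1 lower. Monolayer day 3 against day 2 fell to 2 genes without any 1 of day 2 replicates 1 and 2 and day 3 replicates 2 and 3.

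The change from day 1 to day 8 differed between sandwich and monolayer in 16 genes. It was higher in sandwich in 12 of 40 (11.3% of all genes) and lower in 4 of 40 (10.5% of all genes), and 12 and 2 with median-centred arrays. The 12 were Slc25a1, Slc25a5, Slc25a10, Slc25a13, Slc25a15, Slc25a20, Slc25a22, Slc25a25, Slc25a33, Slc25a35, Slc25a38 and Slc25a42, and the 4 were Slc25a14, Slc25a24, Slc25a36 and Slc25a45. A test of culture by day over all 4 days called 14 of the 40 (35.0%, against 21.2% of all genes). Slc25a4 was in neither group of calls. Both tests hold the sandwich rise for which it was singled out, so no conclusion on equal change is drawn.

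**Figure D5:**
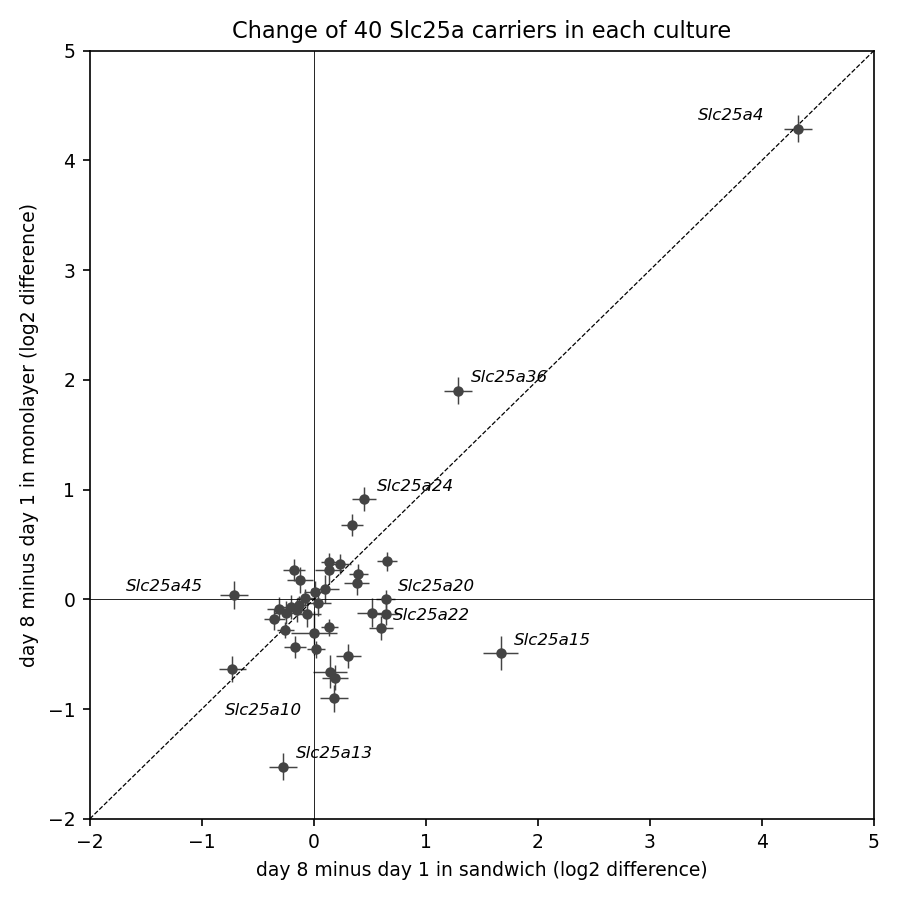
Change from day 1 to day 8 in sandwich (x axis) against the same change in monolayer (y axis), as log2 differences with bars of 1 SE, for the 40 carriers; the dashed line marks equal change. Slc25a4 lies on the line at 4.32 in sandwich and 4.29 in monolayer, and Slc25a15 lies far from it at 1.67 and -0.49.

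Markers of the labelled and of other cell types were read on the same arrays. The shares of all genes to set beside their counts were 15.6% higher and 20.7% lower in sandwich at day 8. At day 3 they were 10.9% higher and 11.8% lower. All 10 hepatocyte markers lay above the median of all values, with list means of 12.84 in sandwich and 11.90 in monolayer at day 8, and 8 of the 10 were higher in sandwich then. Of 6 measured cholangiocyte markers 3 were lower in sandwich at day 8, namely Krt7, Krt19 and Cldn4, and the list mean ran from 5.27 to 5.50 on the sandwich arrays and from 6.67 to 6.78 on the monolayer arrays. Of 9 measured macrophage markers 8 were higher in sandwich at day 3, with a list mean of 6.80 to 6.89 in sandwich and 6.19 to 6.23 in monolayer, and 1 was higher and 1 lower at day 8. Of 10 stellate cell and fibroblast markers 1 was higher and 2 were lower in sandwich at day 8, with list means of 6.01 in sandwich and 6.07 in monolayer. Of 9 measured endothelial markers 2 were higher in sandwich at day 8 and none lower (limma, also at an unadjusted p under 0.05), and 8 of the 9 had means below 5.62. For beta-actin, the log2 level of its 3′ control probe set minus that of its 5′ one, a measure of RNA integrity and labelling, averaged 0.99 ± 0.11 in sandwich and 0.82 ± 0.04 in monolayer (SD, n = 12 each), and for GAPDH it averaged 0.32 ± 0.10 in sandwich and 0.27 ± 0.07 in monolayer. The part of these markers and controls in the carriers' differences was not tested.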

How the data were processed

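The authors deposited their values as log2 levels per probe set of a rat expression array, normalized between arrays per the submitters' processing notes, which name RMA and limma with no version or role. The background step could not be redone from them. The table held 31099 probe sets. Without 57 controls, 31042 entered the tests: 20826 with 1 platform symbol, 436 with several and 9780 with none.

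A limma 3.58.1 model (R 4.3.3) with a mean for each of the 8 groups used all 24 arrays, without a replicate block, and called genes at a Benjamini-Hochberg adjusted p under 0.05. Shares of all genes count 1 probe set per gene. The number of arrays limits the precision.

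Alternatives were quantile normalization, median-centred arrays, the replicate block, dim probe sets left out, array weights, an intensity trend, the mean of a gene's probe sets, only the compared arrays, and each array left out in turn.

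Array values were given for 8 carriers and for the 3 largest called rises and falls at day 8 and over time in each culture, and per partner list the 3 genes with the smallest adjusted p were named. Members and lists were chosen with earlier results of these data known. Gene positions and promoters are RefSeq's on GRCr8, where all 40 carriers matched by name. Protein and probe sequences were not used here, so cross-hybridization between paralogs was not tested.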

Additional observations from a re-analysis of the deposited data

Results flagged for a closer look

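For 16 of the 40 carriers the change from day 1 to day 8 differed between the cultures by a test of the difference itself in limma, with adjusted p between 7.78e-08 and 0.0395. Values below are the change in sandwich minus the change in monolayer on the log2 scale. The largest was Slc25a15 at 2.16, where sandwich changed by 1.67 and monolayer by -0.49. Next in size came Slc25a13 at 1.25 (sandwich -0.28, monolayer -1.52), Slc25a10 at 1.08 (sandwich 0.18, monolayer -0.90), Slc25a33 at 0.90 (sandwich 0.19, monolayer -0.71), Slc25a22 at 0.86 (sandwich 0.60, monolayer -0.26), Slc25a38 at 0.82 (sandwich 0.31, monolayer -0.51) and Slc25a1 at 0.81 (sandwich 0.15, monolayer -0.66). Slc25a35 was at 0.78, Slc25a20 at 0.64 and Slc25a25 at 0.64. Smaller positive values were those of Slc25a5 (0.47, with sandwich at 0.02 and monolayer at -0.45) and Slc25a42 (0.39). On the negative side, Slc25a45 was at -0.75 (sandwich -0.71, monolayer 0.04), Slc25a36 at -0.62 (sandwich 1.29, monolayer 1.90), Slc25a24 at -0.47 (sandwich 0.45, monolayer 0.91) and Slc25a14 at -0.45 (sandwich -0.18, monolayer 0.27). The Slc25a24 call was lost with median-centred arrays (adjusted p = 0.121) and without any 1 of 8 arrays (adjusted p 0.0543 to 0.112), and the Slc25a14 call with median-centred arrays (adjusted p = 0.0527), with quantile normalization (adjusted p = 0.0587) and without any 1 of 8 arrays (adjusted p 0.0523 to 0.103). The Slc25a25 call was lost without monolayer day 8 replicate 3, sandwich day 1 replicate 2 or sandwich day 8 replicate 2 (adjusted p 0.0572 to 0.0686), and the Slc25a36 call without monolayer day 1 replicate 2, monolayer day 8 replicate 1 or sandwich day 1 replicate 2 (adjusted p 0.0518 to 0.0705).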

How the results depend on the processing

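Of 144 called member differences, 91 kept their call and direction under every alternative and 53 lost the call under at least 1, and none was reversed. Quantile normalization kept 138 of the 144 calls, median-centred arrays 131, array weights 142, the intensity trend 141 and the mean of all probe sets of a gene 134. With dim probe sets left out all 139 that could be read were kept, and with only the arrays of the compared groups 103 of 128 were. The fit with the replicate number as a block kept all 144, and it moved 1 count by more than 1.5 times: day 2 against day 1 in monolayer went to 5 genes, with 3 in the fit without the block. The labels do not say what a replicate number marks. Deviations from group means correlated at -0.43 to 0.53 between arrays of the same number (mean 0.18) and at a mean of -0.09 between arrays of different numbers, and 15 of 24 arrays correlated best with their own number, where 8 would if each number were as likely. This is a hint of pairing from the data, not the design, and not every same-numbered pair correlated, so the block was kept as an alternative. The hint is limited, because deviations cancel within a group. That ties the mean for different numbers to the mean for the same number, and the best matches are not independent. The day 2 against day 1 count in monolayer was also 5 with quantile normalization, dim probe sets left out, array weights and an intensity trend. Day 2 against day 1 in sandwich, at 4, was 7 with dim probe sets left out and with array weights, and 2 with only the compared arrays. Sandwich against monolayer at day 2, at 7, was 11 with array weights and 3 with only the compared arrays. Day 3 against day 2 in monolayer, at 4, was 7 with array weights, and day 8 against day 3 in sandwich, at 13, was 8 with only the compared arrays. The cause of these shifts was not tested. Fits on only the compared arrays also held fewer arrays.

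Leaving out each array in turn gave 1 to 4 genes for sandwich against monolayer at day 1, 3 to 7 at day 2, 11 to 20 at day 3 and 19 to 23 at day 8. Within sandwich it gave 2 to 5 for day 2 against day 1, 1 to 3 for day 3 against day 2, 10 to 14 for day 8 against day 3 and 14 to 19 for day 8 against day 1. Within monolayer it gave 2 to 4, 2 to 4, 10 to 15 and 17 to 20 for the same comparisons. The difference of the changes ran from 13 to 16 and the interaction from 12 to 15. Signal near background limits the 7 dim genes, for which absence of a call says little.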

Other observations

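In monolayer, 5 of the 6 genes listed around citrate and fatty acid synthesis were lower at day 8 than at day 1. None was higher (limma, also at an unadjusted p under 0.05), and the median difference was -1.23. Of all genes, 21.2% were lower and 17.5% higher there. In sandwich 3 of the 6 were higher (14.3% of all genes) and 1 was lower (17.5%), with a median of 0.36. Of 9 regulators of mitochondrial biogenesis, 1 was higher in sandwich than in monolayer at day 8 (15.6% of all genes were) and none lower (20.7% of all genes were), with 2 higher and 1 lower at an unadjusted p under 0.05 in limma. The one called was Ppara, a nuclear receptor of fatty acid oxidation (0.49 ± 0.10 (SE, adjusted p = 0.000652)), and the 2 next by adjusted p were Ppargc1a (0.46 ± 0.18 (SE, adjusted p = 0.0655)) and Gabpa (-0.49 ± 0.20 (SE, adjusted p = 0.0781)), neither of them called.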
